A study of Mus musculus with 3 samples.

Results

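*Sntg1* encodes gamma-1 syntrophin and is 1 of the 32285 genes counted in inguinal stromal vascular fraction (SVF) cells, the non-adipocyte cells of subcutaneous white adipose tissue. The cells were sorted as CD45-negative and DAPI-negative from 4-week-old mice of both sexes and sequenced one by one, with the cells of several mice pooled into 1 library per genotype. The wild-type library served as control for both knockouts. The *Mgp*-KO library came from mice with global deletion of *Mgp*, which encodes matrix Gla protein, and the *Pd*-KO library from *Mgp* flox/flox mice with *Pdgfra*-Cre, which deletes *Mgp* only in cells that express or once expressed *Pdgfra*. Flox/flox mice without Cre were not analysed here. *Sntg1* was chosen by its UMI counts, because it was high in the progenitors of the *Mgp*-KO library in these same data, so that its level there and its ratios to the other libraries are descriptions of a selected gene, without a test. There was 1 library per genotype, no p-value was computed between genotypes, and cells are not replicates. All intervals are 95% intervals that cover counting error only.

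Syntrophins are adaptor proteins beneath the plasma membrane. They bind dystrophin, utrophin and the dystrobrevins, and through a PDZ domain they bring channels, receptors and enzymes to the dystrophin-associated complex, which links the cytoskeleton to the extracellular matrix. Gamma-1 syntrophin is known mainly from neurons, and not as a marker of adipose progenitor cells. The gene is the row with this symbol in the files (ENSMUSG00000025909). It lies on the minus strand of chromosome 1 from 8361475 to 9299878 in GRCm38 (GENCODE M21), with 11 annotated transcripts, of which 4 are protein-coding. Its span of 938 kb ranked 67 of 32158 annotated genes, and only 1.16% of it is exonic. The count of such a gene can depend on whether intronic reads were counted, which was not measured here.

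The values are unique molecular identifiers (UMIs), that is, counted transcript molecules. Barcodes with at least 2000 UMIs, of which at most 10% came from mitochondrial genes, were kept as cells. This left 10511 wild-type cells, 12575 *Mgp*-KO cells and 8819 *Pd*-KO cells, with medians of 12802, 6445 and 8269 UMIs per cell. *Mgp* itself was at 451 UMIs per 1000000 UMIs (CPM) over the wild-type cells, 1.75 CPM over the *Mgp*-KO cells and 18.1 CPM over the *Pd*-KO cells. In progenitors, it was at 503, 1.94 and 1.40 CPM, in keeping with the labels. Between 72 and 77 cells of each library had a barcode that was also kept in another library. Cells were assigned to 9 lineages by lists of marker genes, and 2.66 to 5.24% of the cells of a library stayed without a lineage.

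*Sntg1* was abundant in the *Mgp*-KO library and scarce in the others. The deposited counts hold 296 *Sntg1* UMIs among 184102026 UMIs of the wild-type library, 11899 among 93212243 UMIs of the *Mgp*-KO library and 96 among 83942865 UMIs of the *Pd*-KO library. The library with the lowest median of UMIs per cell thus held most of the *Sntg1* molecules. Just inside the threshold on UMIs, *Mgp*-KO barcodes with 2000 to 2499 UMIs were at 101 CPM (80.5 to 125), and just outside it, barcodes with 1500 to 1999 UMIs were at 118 CPM (90.4 to 152). At the threshold on mitochondrial UMIs, *Mgp*-KO cells with shares of 5 to 10% were at 160 CPM, and the 4 barcodes above 10% held no *Sntg1* UMI among 16706 UMIs.

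Progenitors, gated by *Pdgfra*, *Dpt*, *Lum*, *Pdgfrl*, *Mfap5* and *Serpinf1*, held 247 of the 254 *Sntg1* UMIs counted in wild-type cells, 11318 of 11559 in *Mgp*-KO cells and 62 of 81 in *Pd*-KO cells. Over the 7709 wild-type progenitors this is 2.18 CPM (1.91 to 2.47). Over the 11166 *Mgp*-KO progenitors it is 143 CPM (140 to 145). Over the 7028 *Pd*-KO progenitors it is 0.931 CPM (0.714 to 1.19). Of the UMIs of all genes, progenitors held 113494118 of 145242566 in wild-type, 79384709 of 89572427 in *Mgp*-KO and 66579242 of 76383468 in *Pd*-KO cells. Over all cells, *Sntg1* was at 1.75, 129 and 1.06 CPM in the same order. The *Pd*-KO progenitors were thus not above the *Pd*-KO cells as a whole. The *Mgp*-KO library was high and both other libraries were near the detection limit of single cells. The log2 ratio of *Mgp*-KO was 6.03 to wild-type (5.85 to 6.22), a 65.5-fold difference, and 7.26 to *Pd*-KO (6.90 to 7.64), a 153-fold difference. The *Pd*-KO level was below that of wild-type, with a log2 ratio of -1.22 (-1.65 to -0.82). Both knockout libraries thus had almost no *Mgp* in their progenitors, but only that of the global deletion had high *Sntg1*.

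The share of progenitors with at least 1 *Sntg1* UMI was 2.65% in wild-type (204 cells; 2.30 to 3.03), 21.4% in *Mgp*-KO (2395 cells; 20.7 to 22.2) and 0.669% in *Pd*-KO (47 cells; 0.492 to 0.888). Wild-type progenitors had a median of 14118 UMIs, *Mgp*-KO progenitors 6484 and *Pd*-KO progenitors 9134, so the shares were also taken after each cell had been thinned at random to 2000 UMIs. They were then 0.454%, 12.35% and 0.185%, in the same order of libraries.

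**Figure D1:**
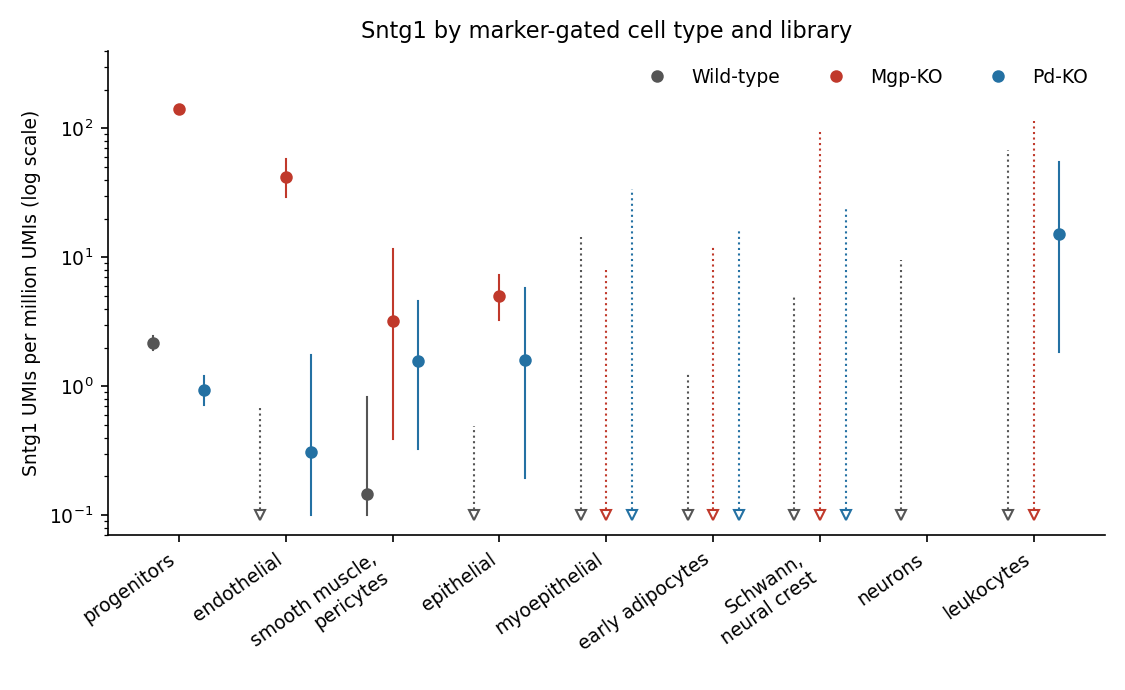
*Sntg1* CPM (log axis) summed over the cells of each marker-gated type, with 1 point per library and lines for the 95% Poisson interval, cut off at 0.1; open triangles mark types in which no *Sntg1* UMI was counted, with a dotted line up to the upper limit of the interval. *Mgp*-KO progenitors stand at 143 CPM, above every other type and library.

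Each of the other gated types of the *Mgp*-KO library was below its progenitors, at 42.0 CPM or less, and the 334 cells without a lineage were at 70.7 CPM (60.6 to 82.0), with a *Sntg1* UMI in 11.4% of them. Epithelial cells, the other large group of that library with 556 cells, had 27 UMIs, which is 5.00 CPM (3.29 to 7.27). Of these UMIs, 6 lay in a single cell, which had UMIs of 5 of the 6 progenitor markers. Without it, the epithelial level was 3.90 CPM (2.42 to 5.97), and whether it was a doublet was not tested. Progenitors were higher than epithelial cells by a log2 ratio of 4.83 (4.29 to 5.44). The epithelial cells had the larger median of UMIs per cell (8645 against 6484). Of them, 2.52% had a *Sntg1* UMI, or 0.360% after thinning, against 21.4% and 12.35% of progenitors. Smooth muscle cells and pericytes had 2 UMIs over 164 cells, which is 3.21 CPM (0.388 to 11.6).

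Endothelial cells were at 42.0 CPM (29.4 to 58.2) from 36 UMIs, but these lay in 3 of 227 cells. A single cell held 24 of the 36 UMIs, and it had UMIs of 5 of the 6 progenitor markers. Without that cell, the endothelial level was 14.3 CPM (7.38 to 24.9) from 12 UMIs. Whether the cell was a doublet was not tested. No *Sntg1* UMI was counted in 87 myoepithelial cells, 21 early adipocytes, 13 Schwann and neural crest cells or 7 leukocytes of this library, and a count of 0, with its limit set at 3 counts, allows shares of cells with a UMI of up to 3.45%, 14.3%, 23.1% and 42.9%.

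In the wild-type library, no *Sntg1* UMI was found in 740 endothelial, 320 epithelial, 135 Schwann and neural crest or 73 early adipocyte cells, nor in 92 cells with the neuronal markers *Stmn2*, *Nefl*, *Nefm*, *Tubb3* and *Snap25*. With the same limit of 3 counts, the neuronal zero allows a share of up to 3.26% of cells. No cell was gated as a neuron in either knockout library. The *Pd*-KO library had 1 UMI in 688 endothelial cells, 3 in 425 smooth muscle cells and pericytes, 2 in 111 epithelial cells and 2 in 35 leukocytes, none of which stands apart from its progenitors by counting error except the leukocytes at 15.2 CPM (1.84 to 54.8). The *Pd*-KO cells without a lineage were at 3.87 CPM (1.93 to 6.92), above the *Pd*-KO progenitors. The markers of other lineages in progenitors were also summed. In *Mgp*-KO, 7 of the 8 other marker lists were below wild-type, and the neuronal list was at 4.41 CPM in wild-type, 4.43 in *Mgp*-KO and 2.97 in *Pd*-KO. *Mgp*-KO was also above *Pd*-KO for the lists of early adipocytes (52.7 against 40.3 CPM) and epithelial cells (6.45 against 4.37 CPM), and below it for the other 5. Their part in the level of *Sntg1* was not tested. Every marker of these lists had a UMI in the progenitors of each library.

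Free RNA was read from barcodes with 10 to 100 UMIs, which hold too little RNA for a cell. In the *Mgp*-KO library, *Sntg1* was at 51.9 CPM there (37.2 to 70.4; 41 UMIs). In the wild-type library it was at 2.61 CPM from 3 UMIs, and in the *Pd*-KO library at 2.99 CPM (1.43 to 5.50) from 10 UMIs. The free level in the *Mgp*-KO library was 36.4% of the level in its progenitors, with a log2 ratio of -1.46 (-1.94 to -1.02). For *Pdgfra* it was 81.7%, for *Dpt* 74.8% and for the matrix proteoglycan *Dcn* 60.1%. The nuclear RNAs *Malat1* and *Neat1* were at 60.0% and 118%, and the long genes *Sox5* and *Ldb2* at 62.6% and 63.8%. In this range of barcodes, the share for *Sntg1* was below that of each of these 7 genes, and its level in epithelial cells was below that in free RNA. The share depended on the range, since *Mgp*-KO barcodes of under 10 UMIs were at 100.2 CPM (85.4 to 117), for which the other 7 genes were not computed. In the other libraries, the level of *Sntg1* in barcodes of 10 to 100 UMIs was 120% of the level in progenitors in wild-type, from 3 UMIs, and 321% in *Pd*-KO, from 10 UMIs. These shares depended on the range as well. Wild-type barcodes of 101 to 499 UMIs were at 0.881 CPM (0.493 to 1.45; 15 UMIs), below the wild-type progenitors. They held 17029567 UMIs of all genes, against 1149249 in wild-type barcodes of 10 to 100 UMIs. Wild-type barcodes of 500 to 1999 UMIs were at 1.02 CPM (0.585 to 1.66; 16 UMIs). The shares of the libraries in the range of 10 to 100 UMIs are therefore not directly comparable. In *Pd*-KO, barcodes of that range held no *Sntg1* UMI among 409977 UMIs.

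Within *Mgp*-KO progenitors, *Sntg1* was very uneven between cells. The mean was 1.01 UMIs per cell, yet 78.6% of the cells had none, against 39.8% if counts had followed each cell's depth alone. The 10% of cells with most *Sntg1* held 84.0% of its UMIs, and the top 1% held 24.5%. At least 3 UMIs were counted in 1169 cells (10.5%) and 10 or more in 334 cells (2.99%), with a maximum of 58. In wild-type progenitors no cell had more than 3, and in *Pd*-KO progenitors none had more than 6. Where *Sntg1* was detected in *Mgp*-KO progenitors, the median level in a cell was 334 CPM.

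**Figure D2:**
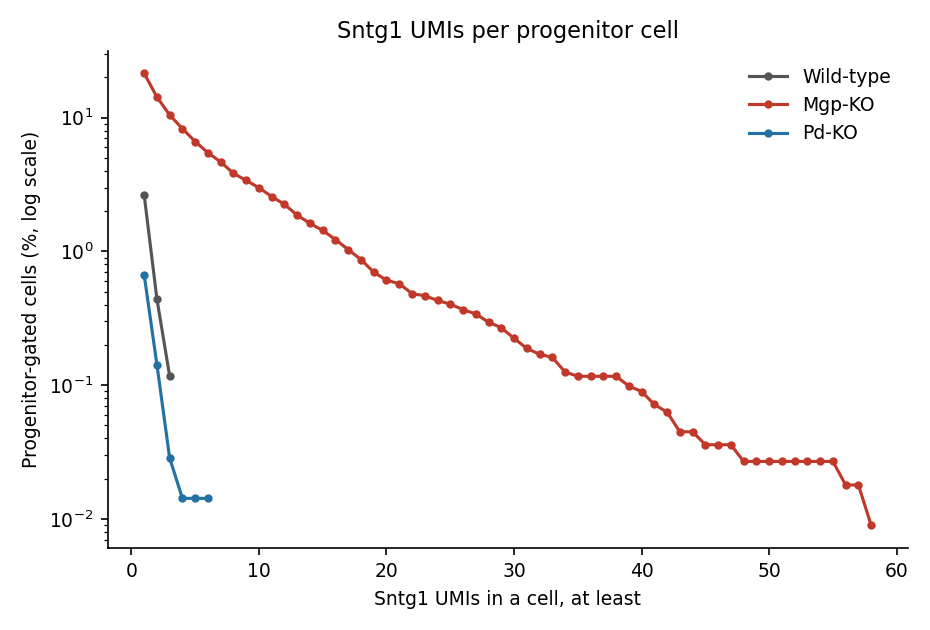
Percent of progenitor-gated cells (log axis) with at least the number of *Sntg1* UMIs on the horizontal axis, for each library. The *Mgp*-KO curve starts at 21.4% for 1 UMI and reaches 2.99% for 10 UMIs and a maximum of 58, whereas the wild-type and *Pd*-KO curves end at 3 and 6.

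The variance of the UMIs divided by their mean was 11.3 in *Mgp*-KO progenitors and 3.20 after thinning to 2000 UMIs, where a value of 1 would be the spread of counting alone. Among 2790 genes with progenitor levels of 50 to 400 CPM, the median of this ratio was 1.06 and the 90th percentile 1.39, and *Sntg1* ranked 18. The unevenness was also present within the cells of a single gate. In the interstitial cells taken by themselves, the thinned ratio was 3.19 and *Sntg1* ranked 5 of these genes, after *Cxcl13*, *H19*, *Ccl7* and *Ptx3*. In the same cells 72.8% had no UMI, against 29.7% in proportion to depth. The mice are pooled in the library, so cells of different mice cannot be told apart beyond their sex.

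Progenitor states were gated by marker lists that do not hold *Sntg1*. Its level in the *Mgp*-KO library was highest in interstitial cells, the *Dpp4*- and *Pi16*-positive cells regarded as early progenitors, with 185 CPM (181 to 190) over 4230 cells. The paper reports high *Dpp4*, *Cd55* and *Pi16* in the clusters it names ASC1 and ASC2, and ties ASC1 mainly to *Mgp* deletion. Whether this gate mixes these clusters, in shares that differ between genotypes, was not tested. Cells gated on *Ccn5*, *Cilp*, *Sfrp2* and *Plac8* followed with 166 CPM (157 to 177; 1041 cells). Preadipocytes, which express *Icam1*, *Fabp4* and *Pparg*, were at 95.9 CPM (90.7 to 101; 1811 cells). Adipogenesis-regulatory cells (Aregs), marked by *F3* and *Gdf10*, were at 70.6 CPM (61.1 to 81.0; 609 cells). The cells gated on *Crabp1* and *Hmcn1* were at 48.3 CPM (40.3 to 57.4; 356 cells) and those gated on *Fgf10*, *Col18a1*, *Sdc1*, *Nxn* and *Cdh11* at 45.0 CPM (38.3 to 52.6; 407 cells). The Poisson intervals of these last 2 levels overlapped, and those of the other neighbors in this order did not. These intervals do not cover the unevenness between cells. The variance divided by the mean was 11.8 in *Mgp*-KO interstitial cells and 11.1 in *Mgp*-KO preadipocytes, and the order of the states was not tested. The lead of interstitial cells over *Ccn5* cells was not seen within either called sex. In the *Crabp1* and *Hmcn1* cells a single cell held 28 of the 128 *Sntg1* UMIs, and in the *Fgf10* and *Col18a1* cells 39 of 159. The 2712 progenitors without a state were at 139 CPM.

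The share of cells with a *Sntg1* UMI followed nearly the same order, with 27.2% of interstitial cells, 23.4% of the *Ccn5* cells, 14.6% of preadipocytes and 10.2% of Aregs. It was 10.6% in the *Fgf10* and *Col18a1* cells and 6.74% in the *Crabp1* and *Hmcn1* cells. Aregs were the shallowest of these states, with a median of 4412 UMIs against 6736 in interstitial cells. After thinning, the shares were 15.6% of interstitial cells (14.5 to 16.7) and 13.9% of *Ccn5* cells (11.9 to 16.2). They were 8.67% of preadipocytes (7.41 to 10.1) and 6.57% of Aregs (4.73 to 8.84). The *Fgf10* and *Col18a1* cells were at 4.18% (2.45 to 6.60) and the *Crabp1* and *Hmcn1* cells at 4.21% (2.38 to 6.85). Of the neighbors in the order of levels, only *Ccn5* cells and preadipocytes did not overlap in these thinned shares.

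The wild-type library showed a gradient as well, at far lower levels: the *Mgp*-KO library was 34.1-fold higher in Aregs, 45.1-fold in interstitial cells, 57.3-fold in *Ccn5* cells and 102-fold in preadipocytes. Interstitial cells were at 4.11 CPM (3.43 to 4.89; 128 UMIs), *Ccn5* cells at 2.90 CPM (1.33 to 5.51; 9 UMIs), Aregs at 2.07 CPM (1.21 to 3.32; 17 UMIs) and preadipocytes at 0.942 CPM (0.673 to 1.28; 40 UMIs). Over all cells of a state, interstitial cells were thus highest in both libraries. In wild-type they overlapped with the *Ccn5* cells within counting error (log2 ratio 0.50, from -0.47 to 1.66). There, *Ccn5* cells were the higher in males, at 4.85 CPM from 6 UMIs against 4.39 CPM. They were the lower in females, at 1.97 CPM from 2 UMIs against 2.99 CPM. The log2 ratio of interstitial cells over preadipocytes was 2.13 in wild-type (1.60 to 2.68) and 0.95 in *Mgp*-KO (0.86 to 1.04). In *Pd*-KO it was -0.37 with an interval from -1.49 to 0.94, and the level of *Pd*-KO preadipocytes (0.539 to 2.46 CPM) rested on 8 UMIs, of which 6 lay in 1 cell. Without that cell, left out after the values had been seen, they were at 0.312 CPM (0.0378 to 1.13) and the log2 ratio of interstitial cells over preadipocytes was 1.63 (-0.32 to 4.73).

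By state, the *Mgp*-KO level exceeded that of wild-type by a log2 ratio of 5.50 in interstitial cells (5.24 to 5.76), 5.84 in *Ccn5* cells (4.91 to 6.97), 6.67 in preadipocytes (6.22 to 7.16) and 5.09 in Aregs (4.38 to 5.90). Over *Pd*-KO it was 7.58 in interstitial cells (7.13 to 8.08), 6.26 in preadipocytes (5.28 to 7.48) and 6.01 in Aregs (4.44 to 8.30). Without the *Pd*-KO cell with 6 UMIs, the value in preadipocytes was 8.26 (6.41 to 11.31). Every state was high in the *Mgp*-KO library, including those with the lowest level. In the cells gated on *Crabp1* and *Hmcn1*, the *Pd*-KO library had no *Sntg1* UMI in 48 cells, and the wild-type library 2 in 143 cells.

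**Figure D3:**
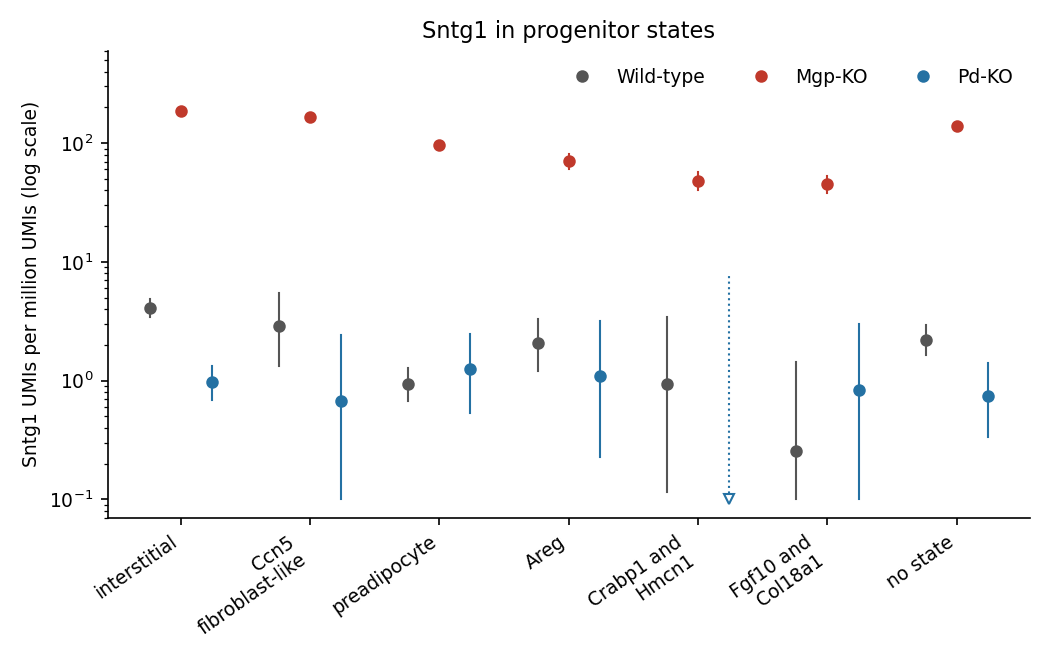
*Sntg1* CPM (log axis) in the progenitor states of each library, with points for the sums and lines for the 95% Poisson interval, cut off at 0.1; the open triangle marks a state without a *Sntg1* UMI. *Mgp*-KO states span 45.0 to 185 CPM, and no wild-type or *Pd*-KO state exceeds 4.11 CPM.

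Both sexes of the *Mgp*-KO library had high *Sntg1*. Cells were called female by *Xist* and male by Y-linked genes. The 6632 female progenitors were at 146 CPM (142 to 149) and the 1732 male progenitors at 184 CPM (177 to 191), with *Sntg1* UMIs in 22.6% and 27.9% of cells, or 13.2% and 15.4% after thinning. In interstitial cells alone, females were at 202 CPM (195 to 209) and males at 224 CPM (213 to 235). The *Ccn5* cells were at 202 CPM (188 to 217) in females and 228 CPM (197 to 261) in males. Within a called sex, interstitial cells were thus not above the *Ccn5* cells. The signal was therefore not limited to the mice of 1 sex. The 2802 progenitors without a sex call, which had a median of only 5219 UMIs, were at 98.2 CPM (93.6 to 103).

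In wild-type, male progenitors were at 2.80 CPM (2.34 to 3.33) with 128 UMIs, whereas the female progenitors had 57 UMIs (1.13 to 1.94 CPM). The log2 ratio of male over female was 0.91 in wild-type (0.45 to 1.38) and 0.33 in *Mgp*-KO (0.27 to 0.40). In *Pd*-KO, with 25 and 27 UMIs, it was -0.48 with an interval from -1.33 to 0.36. Cycling progenitors, which had UMIs of at least 2 of *Mki67*, *Top2a*, *Cenpf* and *Birc5*, were lower in the *Mgp*-KO library. They were at 31.0 CPM (23.4 to 40.4; 141 cells) against 145 CPM in the other progenitors (142 to 148), although their median was 12321 UMIs per cell against 6448.

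Among all genes, *Sntg1* stood near the top of both contrasts. Genes with at least 20 CPM in either library were compared on sums over progenitors as log2(CPM + 1), a scale that understates the ratio of genes at low levels. For *Mgp*-KO over wild-type, 320 of 6348 genes (5.04%) were higher by more than 4-fold and 16 (0.252%) were lower. For *Mgp*-KO over *Pd*-KO, 42 of 6530 genes (0.643%) were higher and 1 (0.0153%) was lower. On this scale *Sntg1* was at 5.50 over wild-type and 6.22 over *Pd*-KO, and ranked 2 in each contrast. The gene above it was *Gm17268* over wild-type (0 against 67.9 CPM) and *Gm10260* over *Pd*-KO (0.345 against 109 CPM), both named after their values were seen. These contrasts were used to choose *Sntg1*, and share the *Mgp*-KO library.

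Long genes as a class differed between the wild-type library and both knockout libraries. The header of the wild-type count file names Cell Ranger 4 and those of both knockout libraries version 7.1.0, and neither states how intronic reads were handled. Of 86 genes with a span of 500 kb or more, 86 were higher in *Mgp*-KO than in wild-type progenitors, with a median log2 ratio of 2.79 against 0.12 over all genes. In *Pd*-KO over wild-type, the median of such genes was 2.99, but *Sntg1* was at -0.72 on the same scale. The part of the *Sntg1* ratio over wild-type that belongs to the difference between the count files cannot be told apart from the rest. The knockout libraries share a version, and between them the median of 89 long genes was -0.22, against -0.01 over all genes. *Sntg1* was the only long gene above 4-fold in that contrast, which was among those used to choose it. The next was *St6galnac3* with 1.53 (51.2 CPM in *Mgp*-KO and 17.1 CPM in *Pd*-KO).

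**Figure D4:**
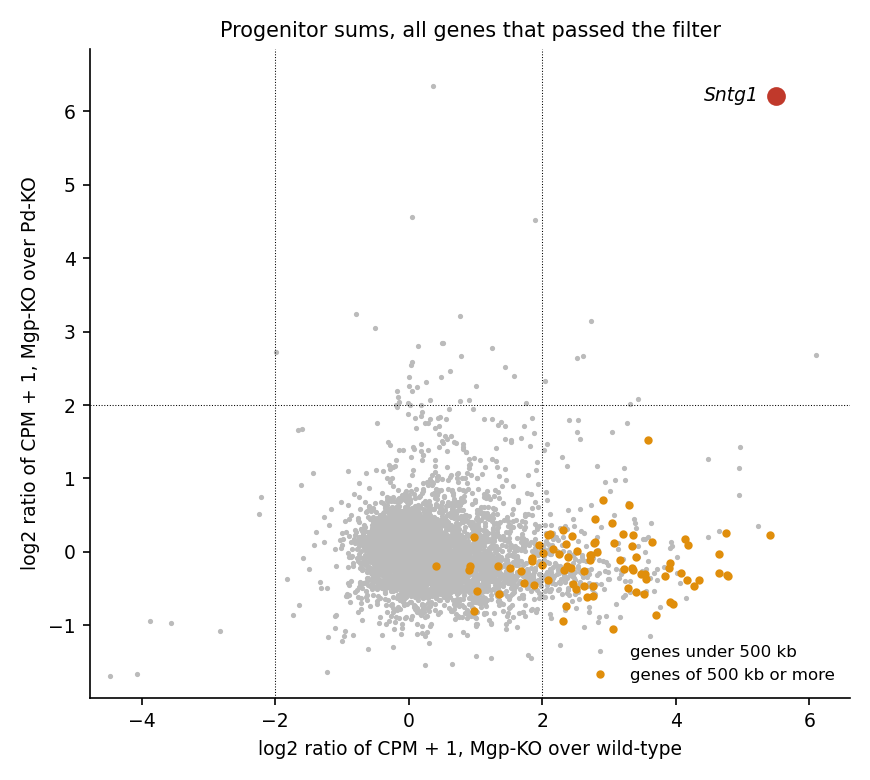
Log2 ratios of CPM + 1 over progenitors for every gene that passed the filter, *Mgp*-KO over wild-type (horizontal) and *Mgp*-KO over *Pd*-KO (vertical), with genes of 500 kb or more in orange and dotted lines at a 4-fold difference. Long genes lie to the right along the horizontal axis and near 0 on the vertical one, and *Sntg1* lies at 5.50 and 6.22, apart from them.

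Only 8 of the 6186 genes tested in both contrasts (0.129%) were higher by more than 4-fold in both, among them *Sntg1*, which had the largest smaller ratio of the 2. The next were the noncoding *1200007C13Rik* with 2.73 (9.28 CPM in wild-type, 67.1 in *Mgp*-KO and 6.65 in *Pd*-KO) and *Gm17268* with 2.68. *Has1*, a hyaluronan synthase, was at 46.8, 292 and 45.2 CPM. *Cxcl13*, a chemokine that attracts B cells, was at 46.1, 270 and 42.3 CPM. *Ifrd1*, a transcriptional coregulator, was at 112, 462 and 90.8 CPM, and *Casp4*, an inflammatory caspase, at 15.3, 57.5 and 15.5 CPM. The other genes of the first 10 were *Lonrf3*, *Taf4b* and *Mrgprg*, with smaller ratios of 2.08, 2.01 and 1.89. The smaller ratio of *Sntg1* was 5.50, and the lowest of the 10, that of *Casp4*, was 1.82. *Sntg1* was chosen for this same pattern, so its first place restates the choice. Among the 10, *Sntg1*, *1200007C13Rik*, *Gm17268*, *Lonrf3*, *Taf4b*, *Mrgprg* and *Casp4* reached 20 CPM only in the *Mgp*-KO library. They thus passed the filter only through the library in which they were high.

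The genes whose levels most resembled those of *Sntg1* across cell types were found by Pearson correlation of log2(CPM + 1) over 30 sums of library and cell type or state with at least 50 cells, among 11484 genes. These sums share libraries and depth, so the correlations are descriptions only. The highest were *Lonrf3* (0.79), *Has1* (0.78), *Zbtb2* (0.78), *Zbtb16* (0.77) and *Ifrd1* (0.77), followed by *Nfil3* (0.75), *Arl5b* (0.72), *Fbxo33* (0.71), *1200007C13Rik* (0.71) and *Gm17268* (0.70). *Zbtb2*, *Zbtb16* and *Nfil3* encode transcription factors. None of the 10 matched the pattern of *Sntg1* closely. *Sntg1* was at 45.0 to 185 CPM in the *Mgp*-KO states and at most 42.0 CPM in any other sum, the *Mgp*-KO endothelial cells. *Lonrf3* was at 8.50 to 47.0 CPM in these states and at most 12.0 elsewhere. *Zbtb16* was at 79.6 to 361 CPM and at most 130 elsewhere, and *Ifrd1* at 284 to 899 CPM and at most 284 elsewhere.

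Within the interstitial cells of the *Mgp*-KO library, 596 cells with 3 or more *Sntg1* UMIs were set beside 3081 cells without any, a comparison chosen after the data had been seen. Their profiles were nearly alike: of 6183 genes with at least 20 CPM in either set and a UMI in at least 10% of its cells, 21 (0.34%) were higher by more than 2-fold and 5 (0.0809%) were lower. *Hs6st3*, a heparan sulfate sulfotransferase, differed most, with 87.0 CPM in cells with *Sntg1* and 20.1 CPM in those without. It was followed by *Epha3*, an ephrin receptor, with 196 and 63.5 CPM, and *Dlg2*, a synaptic scaffold, with 25.1 and 8.44 CPM. At the other end, *Uchl1*, a ubiquitin hydrolase, was at 41.1 CPM in cells with *Sntg1* and 93.4 CPM in those without, and *Angptl1* at 21.6 and 48.9 CPM. Cells with *Sntg1* were deeper, with a median of 8676 UMIs against 6349. At the same CPM, a gene thus reached 10% of cells more readily in them. A gene could pass the filter through either set alone. *Hs6st3* and *Dlg2* passed it only through the cells with *Sntg1*, whereas *Epha3*, *Uchl1* and *Angptl1* passed it in both sets. How far the filter and the depth shaped the counts of 21 and 5 genes was not tested.

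*Sntb2*, *Sntg2* and *Sntb1*, also of the syntrophin family, did not share the pattern of *Sntg1*. *Sntb2*, the beta-2 syntrophin of many cell types, was at 158 CPM (156 to 161) in wild-type, 271 CPM (267 to 275) in *Mgp*-KO and 377 CPM (372 to 382) in *Pd*-KO. *Sntg2*, the closest relative of *Sntg1*, was at 2.26 CPM (1.99 to 2.55), 15.5 CPM (14.6 to 16.4) and 10.1 CPM (9.39 to 10.9), and *Sntb1* at 0.590, 5.72 and 5.92 CPM. Each of these 3 was higher in both knockout libraries than in wild-type. Whether the difference between the count files has a part in this, or in the values of the complex below, was not tested. The log2 ratios of these 3 genes in *Mgp*-KO over *Pd*-KO lay between -0.48 and 0.61, against 7.26 for *Sntg1*. *Sntg2* and *Sntb1* stayed under the filter of 20 CPM.

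RNA of the dystrophin family, to whose proteins syntrophins bind, was counted in progenitors of all libraries, at levels that differed widely between the genes. *Utrn*, which encodes utrophin, was at 48.2, 186 and 320 CPM in wild-type, *Mgp*-KO and *Pd*-KO, and *Dmd*, which encodes dystrophin, at 8.58, 23.5 and 35.6 CPM. Both were highest in *Pd*-KO. The dystrobrevins *Dtna* and *Dtnb* were at 2.31, 8.52 and 19.1 CPM and at 3.38, 14.5 and 14.9 CPM, and *Drp2* at 1.20, 1.36 and 1.26 CPM.

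In the membrane part of the complex, *Dag1*, which encodes dystroglycan, the receptor for laminin, was at 112, 97.9 and 141 CPM. The sarcoglycan *Sgce* was at 83.9, 102 and 127 CPM, *Sgcb* at 21.5, 20.2 and 17.5 CPM, and sarcospan (*Sspn*) at 60.3, 61.8 and 79.9 CPM. *Sgcd* was at 5.50, 52.7 and 39.9 CPM and was, of the members that passed the filter, the only one besides *Sntg1* above 4-fold in *Mgp*-KO over wild-type. Its span is over 500 kb, and 70 of the 86 genes of 500 kb or more were above 4-fold in that contrast. *Sgcz*, which also spans a long stretch of the genome, was at 0.0441, 3.48 and 5.45 CPM. The muscle sarcoglycan *Sgca* was at 0.238, 0.176 and 0.0601 CPM.

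Of the binding partners of syntrophins, *Dgkz*, the diacylglycerol kinase that gamma-1 syntrophin binds, was at 7.51, 9.81 and 10.9 CPM. *Plekha1* was at 21.0, 23.4 and 29.3 CPM, *Mapk12* at 11.8, 12.8 and 17.1 CPM and *Nos1*, neuronal nitric oxide synthase, at 0.634, 1.89 and 0.706 CPM. The water channel *Aqp4* had no UMI in progenitors of any library. Of the 20 other genes of the complex and its partners that are reported here, 9 passed the filter. In *Mgp*-KO over wild-type, 1 of the 9, the long gene *Sgcd*, was above 4-fold (5.04% of all genes). The median log2 ratio of the 9 was 0.28, against 0.12 over all genes. In *Mgp*-KO over *Pd*-KO, none was (0.643% of all genes), and they ranged from -0.78 to 0.39 with a median of -0.37, against -0.01 over all genes.

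**Figure D5:**
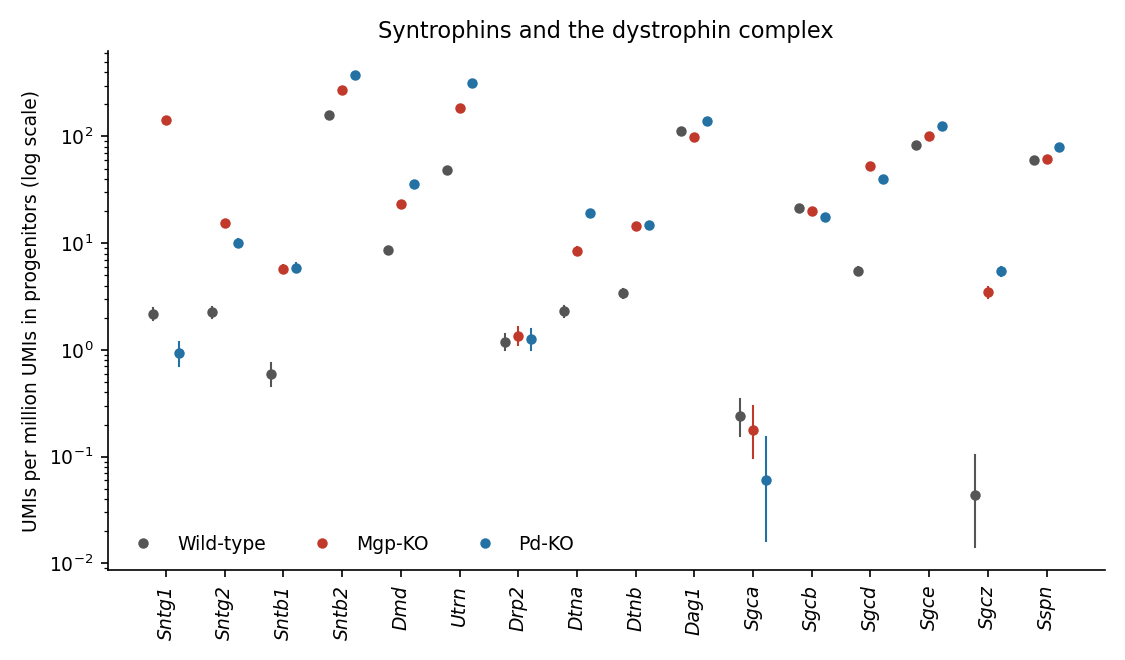
CPM in progenitors (log axis) of syntrophins and other genes of the dystrophin complex by library, with points for the sums and lines for the 95% Poisson interval, mostly hidden by the point. *Sntg1* alone is at 143 CPM in *Mgp*-KO and at or below 2.18 CPM in both other libraries.

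Of the 5 protein-coding genes on each side of *Sntg1* on chromosome 1, 4 passed the filter. None of the 4 was above 4-fold in *Mgp*-KO over wild-type (5.04% of all genes) or over *Pd*-KO (0.643% of all genes), so that their count is near the share of all genes. On the side of lower coordinates, *Rb1cc1*, an autophagy gene, was at 69.2, 80.9 and 97.9 CPM in wild-type, *Mgp*-KO and *Pd*-KO, and *Pcmtd1* at 55.0, 60.0 and 71.6 CPM. On the other side, *Vcpip1* was at 26.7, 29.1 and 32.7 CPM, and *Rrs1*, a ribosome assembly gene, at 41.9, 45.1 and 13.3 CPM, which is 3.40-fold higher in *Mgp*-KO than in *Pd*-KO. Under the filter, *Adhfe1* was at 6.13, 12.4 and 5.26 CPM and *Mybl1* at 1.86, 3.04 and 1.79 CPM. *St18*, *Alkal1* and *Vxn* were below 0.9 CPM in each library, and *Npbwr1* had no UMI.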

How the data were processed

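For each library (10x Genomics 3′ v3), the authors deposited an unfiltered matrix of raw UMI counts. The submitters' processing notes name Cell Ranger 6.1.1 and GRCm39, the methods of the study name the same version with default settings and mm10, and the file headers name version 4 for wild-type and 7.1.0 for both knockouts. Coordinates here come from GENCODE M21.

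Counts were read in Python 3.11.15 with scipy 1.17.1. A cell was given the lineage whose markers had the highest mean log-transformed UMIs per 10000, if at least 40% of them had a UMI and the score was 1.5 times that of the next list (1.25 times for states, within progenitors). Other cells were left out, and no doublet caller was run. Intervals are Poisson (exact) for sums, Clopper-Pearson for shares, and conditional binomial (exact) for log2 ratios; the share that a count of 0 allows is 3 counts of the cells. A pseudocount of 1 CPM was added only where genes were compared with each other. The steps were tested on simulated data.

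*Sntg1*, the marker and gene lists and the thresholds were chosen with earlier results of these data known. Named genes are the syntrophins, their complex and partners, the 5 protein-coding neighbors on each side, the 10 genes of most alike pattern and the 10 with the highest smaller ratio of both contrasts; genes named beyond these are said to be so, and some genes of these lists are not reported here. Alternatives covered the filters on barcodes and genes, the gate, thinning, scaling, weighting and sex.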

Additional observations from a re-analysis of the deposited data

Results flagged for a closer look

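*Sntg1* was found in *Mgp*-KO barcodes far too small to be cells. In barcodes of under 10 UMIs it was at 100.2 CPM (85.4 to 117; 163 UMIs), against 1.47 CPM from 5 UMIs in the wild-type library and 1.47 CPM from 3 UMIs in the *Pd*-KO library. This was above the level in *Mgp*-KO barcodes of 10 to 100 UMIs, 51.9 CPM. Barcodes of 101 to 499 UMIs were at 64.4 CPM (36.0 to 106), and those of 500 to 1999 UMIs at 124 CPM (103 to 149).

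The levels of preadipocytes and Aregs stood in opposite order in 2 libraries. The log2 ratio of *Sntg1* in preadipocytes over Aregs was 0.44 in *Mgp*-KO (0.23 to 0.67) and -1.14 in wild-type (-1.99 to -0.22, from 40 and 17 UMIs). The thinned shares of cells with a UMI overlapped in both libraries. In *Mgp*-KO they were 8.67% (7.41 to 10.1) and 6.57% (4.73 to 8.84), and in wild-type 0.147% (0.0399 to 0.375) and 0.511% (0.139 to 1.30). With 1 library each, the difference was not tested.

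Cycling progenitors were lower than the others in *Mgp*-KO, with a log2 ratio of -2.23 (-2.64 to -1.84), and higher in *Pd*-KO, with 2.82 (1.31 to 4.03). The latter rests on 6 UMIs, 1 in each of 6 of 81 cells, and the difference was not tested.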

How the results depend on the processing

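With 1 library per genotype, no paired analysis was possible because no genotype has a second sample, and precision is limited by counting error in cells and, between genotypes, by the lack of replicates. Of 58 alternative values of 6 results, 41 stayed inside the interval of the main value, or for counts of genes within 1.5 times of it. No alternative changed the sign of either log2 ratio, and a change of direction was not defined for the other results. The log2 ratio of *Mgp*-KO to wild-type ranged from 5.63 (each cell weighted equally) to 6.60 (female cells alone) and was 5.69 after thinning to 2000 UMIs. That over *Pd*-KO ranged from 6.89 after thinning to 7.73 in male cells alone. The *Mgp*-KO level was 152 CPM with 5000 UMIs per barcode, 146 CPM with the gate on a *Pdgfra* UMI alone, 146 CPM in female and 184 CPM in male cells, and 130 CPM with each cell weighted equally. The share of progenitors with a UMI was 25.1% with 5000 UMIs, 22.6% with the *Pdgfra* gate, 22.6% in female and 27.9% in male cells, and 12.35% after thinning. Without a minimum CPM, 506 genes were more than 4-fold higher over wild-type and 65 over *Pd*-KO. Score margins of 1 and 3 for the gate, chosen after seeing the data, moved neither log2 ratio, nor the *Mgp*-KO level and share, out of the interval of its main value; the counts of genes were not recomputed under them.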
